A study of Homo sapiens with 12 samples.

Results

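The 10 genes described here encode the factors that rejoin broken DNA ends without a homologous template, or that steer breaks toward such joining: XRCC5, XRCC6, PRKDC, DCLRE1C, XRCC4, LIG4, NHEJ1, POLQ, TP53BP1 and RIF1. They were chosen by name, with earlier results of these data known, so their counts beside the shares of all genes are descriptions only. Each matched 1 row of a count matrix of 57500 Ensembl genes. All 10 passed the filter on low counts, with 15805 genes tested in all.

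The libraries came from OE33, an epithelial line of human esophageal adenocarcinoma, in 4 groups of 3. The rABS_shAPE1 cells (shAPE1) carried a short hairpin RNA against APE1, the base excision repair endonuclease encoded by APEX1. The rABS_shCtrl cells (shCtrl) carried a non-targeting hairpin. Both were made by stable transduction of the rABS cells, the survivors of 15 days in which bile salts at 200 µM and pH 5.5 were applied for 20 minutes each day. The Parental cells were untreated, with neither exposure nor vector. Neither a mock-treated group nor another APE1 hairpin is named, so time in culture cannot be told apart from exposure, nor other targets of that hairpin from APE1 itself. Any difference between the transduced populations that arose during selection cannot be told apart from the hairpin either. The study describes the 3 libraries of a group as independent biological replicates of a single cell line.

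Library totals ran from 15736087 to 23010377 counts. APEX1 had 4.42, 4.5 and 5.88 CPM (counts scaled to library size) in shAPE1, against 62, 56.5 and 60.9 CPM in shCtrl, 12.2-fold lower. All 5 epithelial markers had counts in every group. Their summed level was 9030.1 to 9547 CPM in shAPE1, 10499.6 to 11576 in shCtrl, 10672 to 12962 in rABS and 12478 to 15755 in Parental. KRT19 made up most of each sum, and the 5 did not move together. In rABS and Parental, KRT19 averaged 7860.5 and 11736 CPM, CDH1 777 and 974, and EPCAM 136 and 134. KRT8 (1952 and 879 CPM) and KRT18 (1025 and 759.7 CPM) were higher in rABS. Summed markers of haematopoietic cells were at most 6.5 CPM, of fibroblasts at most 29.5 CPM (in Parental) and of endothelial cells at most 0.889 CPM. In bulk RNA, fewer cells with a transcript and less transcript per cell cannot be told apart.

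In canonical nonhomologous end joining, the Ku heterodimer of XRCC5 (Ku80) and XRCC6 (Ku70) threads onto a DNA end and recruits the kinase DNA-PKcs, the product of PRKDC. Ends that cannot be joined directly are trimmed, among others by the nuclease Artemis (DCLRE1C), and are sealed by DNA ligase IV (LIG4) on its scaffold XRCC4, with XLF (NHEJ1) bridging the ends. TP53BP1 and its effector RIF1 limit resection of the ends, while polymerase theta (POLQ) joins ends that were resected, at short stretches of shared sequence.

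The survivors of the bile salt exposure held more transcript of most end joining genes than untreated cells. Between rABS and Parental, 6 of the 10 rose, 1 fell and 3 were not called (edgeR quasi-likelihood test, Benjamini-Hochberg adjusted p under 0.05, n = 3 per group). The background was broad: 29.9% of all genes tested rose, 29.9% fell and 59.8% were called in either direction. POLQ rose 2.48-fold and RIF1 2.07-fold, DCLRE1C fell 2-fold, and PRKDC, XRCC5, TP53BP1 and XRCC6 rose 1.18- to 1.41-fold. The 10 genes had a median log2 change of 0.31, beside -0.01 over all genes tested. The groups did not overlap for 8 of the 10, where 63.1% of all genes tested had groups without overlap. All 9 proliferation genes examined rose in the same comparison, with a median log2 change of 0.74, and their part in these changes was not tested.

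The APE1 hairpin went with lower transcript levels of 6 of the 10 genes against the control hairpin, and 4 were not called. In this comparison 18.8% of all genes tested fell, 17.8% rose and 36.6% were called in either direction. PRKDC fell 3.21-fold and LIG4 2.36-fold, RIF1 fell 1.53-fold and POLQ 1.38-fold. XRCC4 (1.45-fold) and XRCC5 (1.13-fold) fell close to the threshold. A fall of PRKDC's size or more was seen in 98 genes, 0.62% of those tested, and LIG4 ranked 330 from the lowest log2 change. The median log2 change of the 10 was -0.45, beside -0.02 over all genes tested, and 5 of them had groups without overlap, beside 46.9% of all genes. Of the 9 proliferation genes, 8 fell and 1 was not called, with a median log2 change of -0.54, and their part in these changes was not tested.

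The shCtrl cells had lower levels of both Ku genes and PRKDC than the rABS cells they were made from. Transduction, selection and the non-targeting hairpin cannot be told apart in that comparison. Between shCtrl and rABS, 3 of the 10 fell and 7 were not called, beside 18.6% of all genes tested that fell and 36.5% called in either direction. The 3 were XRCC5, XRCC6 and PRKDC, each 1.2-fold lower. The groups did not overlap for 4 of the 10, beside 48.4% of all genes. Between shAPE1 and Parental, which differ by exposure, transduction and hairpin together, 2 rose, 3 fell and 5 were not called, beside 26.2% of all genes tested that rose, 27.5% that fell and 53.7% called in either direction. PRKDC, LIG4 and DCLRE1C were the 3 that fell, and POLQ and RIF1 the 2 that rose. These 5 were also the genes whose groups did not overlap, beside 57.2% of all genes. The 4 comparisons share groups and are not independent of each other.

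**Figure D1:**
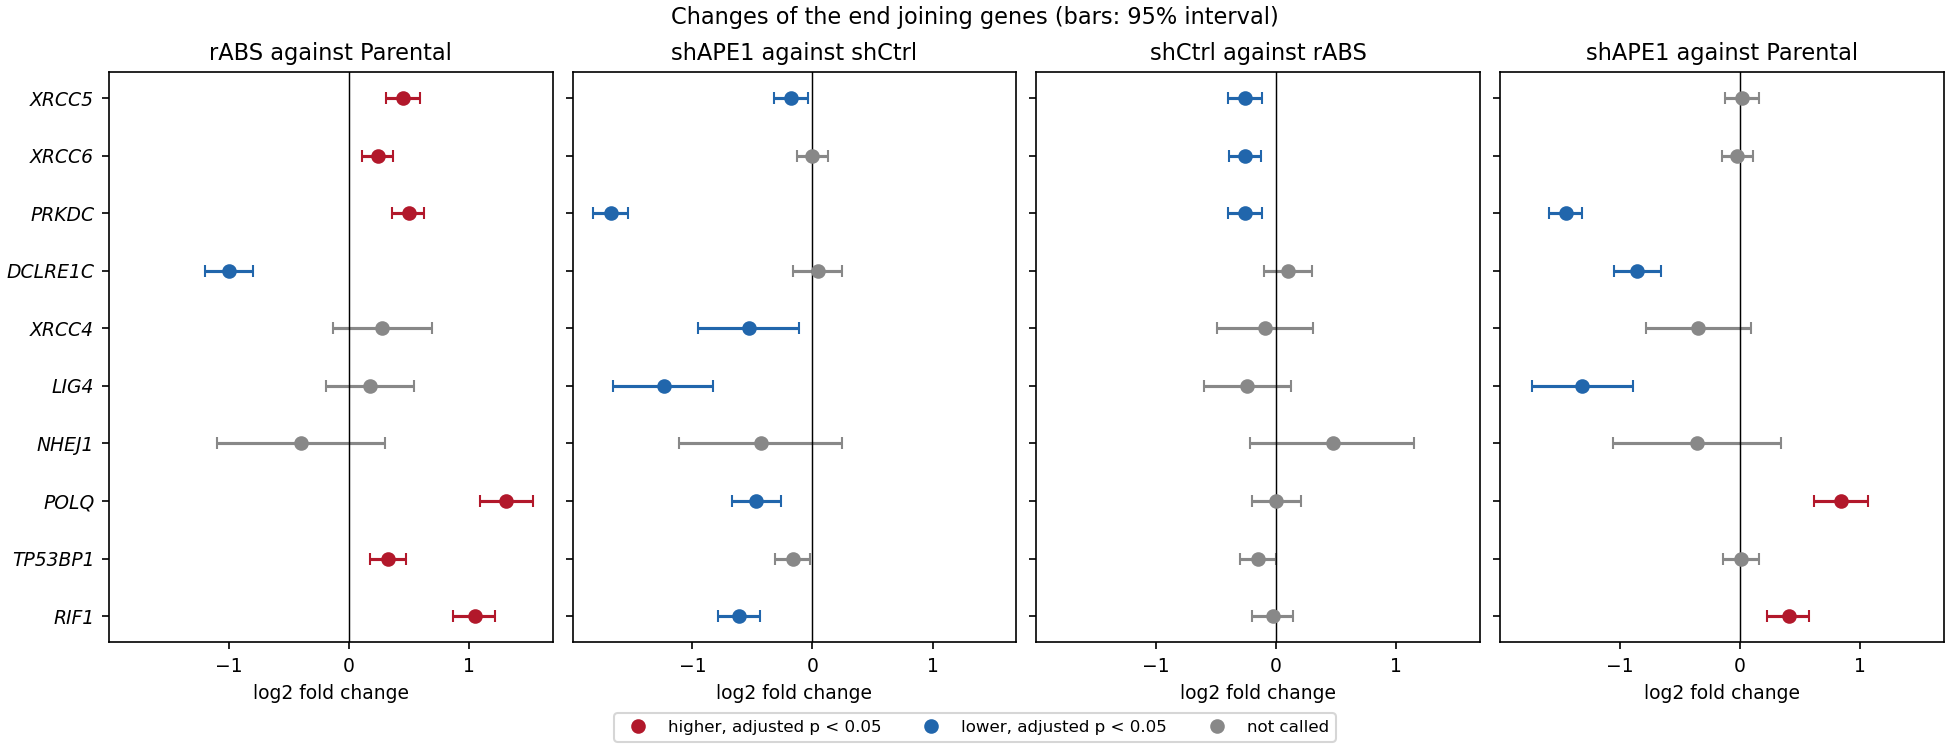
Log2 fold changes of the 10 end joining genes in 4 comparisons, the first-named group over the second, with 95% intervals from the edgeR fit (n = 3 libraries per group); red marks called higher, blue called lower, grey not called. PRKDC and LIG4 lie farthest to the left in the panel of shAPE1 against shCtrl, at -1.68 and -1.24, and POLQ farthest to the right in that of rABS against Parental, at 1.31.

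The genes spanned a wide range of levels. On a scale of CPM per kilobase of annotated exon, the Ku genes and PRKDC were the 3 highest in every group, in the order XRCC6, XRCC5, PRKDC. XRCC6 averaged 112 ± 3.42 in shAPE1, 112 ± 5.71 in shCtrl, 134 ± 7.49 in rABS and 113 ± 4.21 in Parental (CPM per kilobase, SD, n = 3). XRCC5 averaged 61.6 ± 3.77 in shAPE1, 69.6 ± 5.51 in shCtrl, 83.2 ± 3.28 in rABS and 60.8 ± 3.09 in Parental on that scale. PRKDC averaged 13.6 ± 0.577 in shAPE1, 43.8 ± 2.79 in shCtrl, 52.6 ± 3.32 in rABS and 37.3 ± 2.08 in Parental. In shAPE1, PRKDC stood closer to RIF1, at 6.62 ± 0.677 CPM per kilobase, than to XRCC5. At the low end, LIG4 averaged 0.492 ± 0.0489 in shAPE1 and 1.17 ± 0.107 in shCtrl, and NHEJ1 averaged 0.435 ± 0.0706 in shAPE1 and 0.587 ± 0.214 in shCtrl, so these neighbours in the order overlapped in shAPE1. The middle of the order differed between groups: DCLRE1C was the fourth highest in Parental, at 7.13 ± 0.445, and the sixth or seventh elsewhere, while RIF1 was the fourth highest in the 3 exposed groups and the sixth in Parental.

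**Figure D2:**
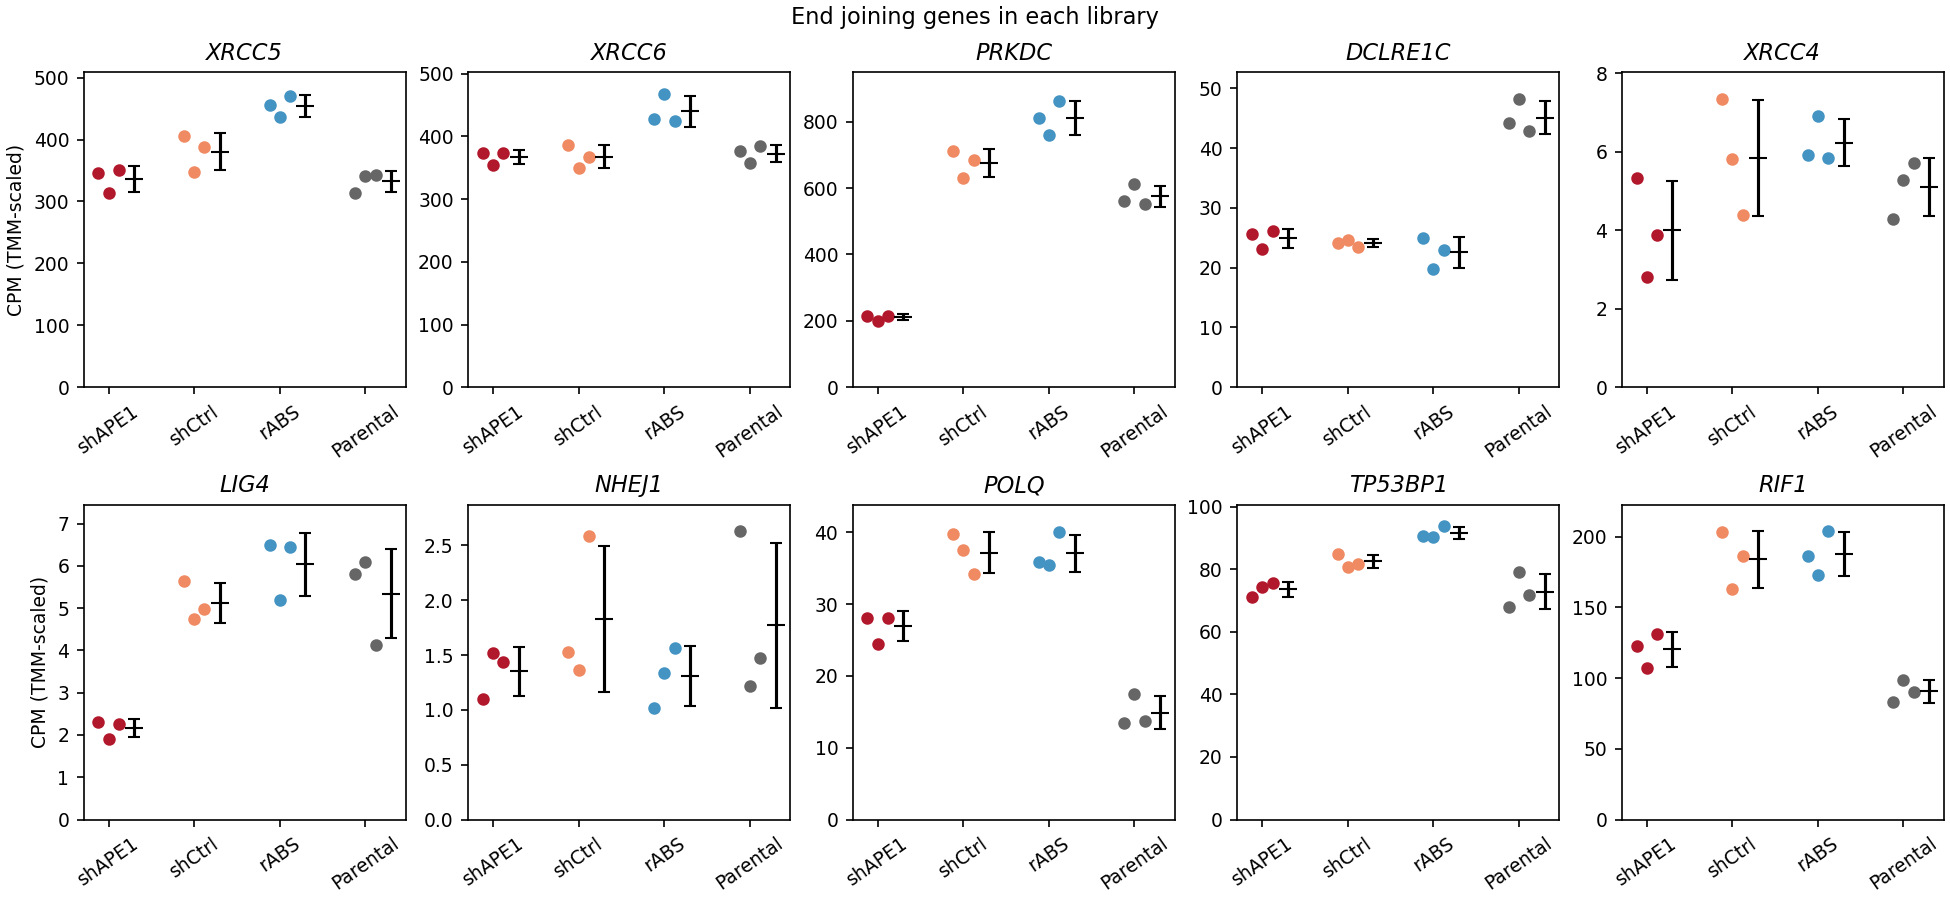
Level of each end joining gene in every library, in CPM on axes that start at 0, by group; each point is 1 library, and the bars give the mean ± SD (n = 3). The shAPE1 libraries lie apart from and below the other 3 groups for PRKDC (200.2 to 216 CPM) and LIG4 (1.91 to 2.31 CPM), and the Parental libraries lie above the other 3 groups for DCLRE1C (42.9 to 48.3 CPM).

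Both Ku genes were highest in rABS. XRCC6 (chromosome 22, 41621119 to 41664048, plus strand, GRCh38) had 374, 354 and 373 CPM in shAPE1, 386, 349 and 368 in shCtrl, 428, 468 and 424 in rABS, and 376, 357 and 384 in Parental. Only the rABS libraries stood apart from the others, above all 9. XRCC6 rose 1.18-fold in rABS against Parental (log2 0.24 ± 0.07, standard error, edgeR quasi-likelihood, Benjamini-Hochberg adjusted p = 0.00181) and fell 1.2-fold in shCtrl against rABS (adjusted p = 0.002). Its log2 change in shAPE1 against shCtrl had a 95% interval of -0.13 to 0.13 and was not called (adjusted p = 0.987).

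XRCC5 (chromosome 2, 216107464 to 216206303, plus strand) encodes the other Ku subunit. It had 346, 313 and 351 CPM in shAPE1, 406, 347 and 388 in shCtrl, 456, 436 and 471 in rABS, and 313, 341 and 343 in Parental. The rABS libraries again lay above the other 9, and the shAPE1 and shCtrl libraries overlapped. XRCC5 rose 1.37-fold in rABS against Parental (log2 0.45 ± 0.07, edgeR adjusted p = 1.18e-06) and fell 1.2-fold in shCtrl against rABS (adjusted p = 0.0038). Its fall in shAPE1 against shCtrl was 1.13-fold (log2 -0.18 ± 0.07, adjusted p = 0.0449), and the call was lost in 13 of 21 alternative analyses, with adjusted p up to 0.226.

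The promoter of XRCC6 is shown because it was the only one of those found with E2F or NRF1 letters, which factors of those names bind. RefSeq promoter windows on GRCh38.p14 were found for 8 of the 10 genes. PRKDC and XRCC5 had none in the set used. The windows have starts of their own, which can differ from the gene starts given here. That of POLQ lies wholly downstream of the gene start at 121546641, inside the gene. Most of the XRCC6 window lies downstream of the gene start at 41621119. The windows of the other genes lie mostly upstream of the gene start. Capitals mark the searched letters, read 5′ to 3′ on the gene's strand: E2F (TTTGGCGC, TTTCCCGC or TTTGGCGG), the CCAAT box (CCAAT), the cell cycle element CHR (TTTGAA), ETS (ACTTCCGG) and NRF1 (CGCATGCG), each on both strands.
XRCC6 promoter (chr22:41621045-41621344, plus strand): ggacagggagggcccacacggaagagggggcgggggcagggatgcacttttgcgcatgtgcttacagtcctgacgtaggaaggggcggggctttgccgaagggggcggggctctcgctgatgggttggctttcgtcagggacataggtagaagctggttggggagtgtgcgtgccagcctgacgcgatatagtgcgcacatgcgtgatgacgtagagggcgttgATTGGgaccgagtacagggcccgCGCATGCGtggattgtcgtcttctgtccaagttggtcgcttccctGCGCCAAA
Of 11047 promoters of tested genes, 4.57% held E2F letters, 36.5% CCAAT, 9.79% CHR, 8.39% ETS and 3.74% NRF1. CCAAT was in 5 of the 8 windows (XRCC6, XRCC4, DCLRE1C, TP53BP1 and RIF1), CHR in 2 (POLQ and RIF1) and ETS in 2 (LIG4 and POLQ). No marked stretch overlaps another in the windows printed, and a match is a description of letters only.

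PRKDC (chromosome 8, 47773108 to 47960183, minus strand), the gene of the kinase DNA-PKcs, had the largest change of the 10 in shAPE1 against shCtrl. It had 215, 200.2 and 216 CPM in shAPE1, 713, 629 and 686 in shCtrl, 809.7, 760.0 and 862 in rABS, and 562, 611 and 551 in Parental. No 2 of the 4 groups overlapped, with shAPE1 far below the rest. These levels rested on 3456 to 17102 counts per library. PRKDC fell 3.21-fold in shAPE1 against shCtrl (log2 -1.68 ± 0.07, 95% interval of the fold 2.91 to 3.55, edgeR adjusted p = 2.77e-18). It fell 2.73-fold in shAPE1 against Parental (adjusted p = 6.73e-18), rose 1.41-fold in rABS against Parental (log2 0.50 ± 0.07, adjusted p = 1.53e-07) and fell 1.2-fold in shCtrl against rABS (adjusted p = 0.00262).

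DCLRE1C (chromosome 10, 14897359 to 14954432, minus strand), which encodes the nuclease Artemis that DNA-PKcs activates, was the only one of the 10 that fell after exposure. It had 25.6, 23.1 and 26.1 CPM in shAPE1, 24.2, 24.7 and 23.5 in shCtrl, 25, 19.8 and 22.9 in rABS, and 44.2, 48.3 and 42.9 in Parental. All 9 exposed libraries lay below the Parental ones, and the 3 exposed groups overlapped each other. DCLRE1C fell 2-fold in rABS against Parental (95% interval -1.20 to -0.80 on the log2 scale, edgeR adjusted p = 1.26e-10) and 1.81-fold in shAPE1 against Parental (adjusted p = 4.1e-09). In shAPE1 against shCtrl its 95% interval ran from -0.16 to 0.25 on the log2 scale (adjusted p = 0.77).

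LIG4 (chromosome 13, 108207439 to 108218368, minus strand), DNA ligase IV, was expressed at a low level. It had 2.31, 1.91 and 2.25 CPM in shAPE1, 5.65, 4.75 and 4.98 in shCtrl, 6.49, 5.18 and 6.45 in rABS, and 5.81, 6.08 and 4.13 in Parental. Every shAPE1 library lay below the 9 others, which overlapped. LIG4 fell 2.36-fold in shAPE1 against shCtrl (log2 -1.24 ± 0.20, edgeR adjusted p = 9.43e-06, 34 to 46 counts per library in shAPE1 and 100 to 112 in shCtrl). It fell 2.47-fold in shAPE1 against Parental (adjusted p = 2.17e-06). In rABS against Parental its log2 change was 0.18 with a 95% interval of -0.19 to 0.54 (adjusted p = 0.416).

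XRCC4 and NHEJ1, the scaffold proteins that hold the ligase and the ends, also had low levels. XRCC4 had 5.32, 2.81 and 3.88 CPM in shAPE1, 7.34, 5.81 and 4.38 in shCtrl, 5.92, 6.92 and 5.85 in rABS, and 4.29, 5.29 and 5.72 in Parental, with 50 to 139 counts per library. The shAPE1 and shCtrl libraries overlapped. Its fall in shAPE1 against shCtrl (1.45-fold, log2 -0.53 ± 0.21, edgeR adjusted p = 0.0418) kept its direction in all 21 alternative analyses but lost its call in 9, where the log2 change was -0.54 to -0.33 and the adjusted p up to 0.266. In rABS against Parental XRCC4 had a log2 change of 0.28 (95% interval -0.13 to 0.69, adjusted p = 0.241), although the libraries did not overlap. NHEJ1 had 1.1, 1.52 and 1.44 CPM in shAPE1, 1.53, 1.36 and 2.59 in shCtrl, 1.02, 1.34 and 1.56 in rABS, and 2.63, 1.22 and 1.47 in Parental. All 4 groups of NHEJ1 overlapped and none of its changes was called, with 95% intervals as wide as -1.11 to 0.25 on the log2 scale in shAPE1 against shCtrl. At 18 to 52 counts per library, that interval allowed a fall of up to 2.16-fold. NHEJ1 also shares 65.4% of its annotated exon bases with AC068946.1 on the same strand, so reads there may have been counted for either gene or for neither.

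POLQ (chromosome 3, 121431427 to 121546641, minus strand), polymerase theta, rose the most of the 10 after exposure. It had 28.1, 24.5 and 28.1 CPM in shAPE1, 39.8, 37.5 and 34.2 in shCtrl, 35.8, 35.4 and 40.0 in rABS, and 13.4, 17.5 and 13.7 in Parental. The shCtrl and rABS libraries overlapped, the shAPE1 libraries lay below them, and the Parental libraries were lowest. POLQ rose 2.48-fold in rABS against Parental (log2 1.31 ± 0.11, edgeR adjusted p = 3.11e-12) and fell 1.38-fold in shAPE1 against shCtrl (log2 -0.47 ± 0.10, adjusted p = 0.000449). It was still 1.8-fold higher in shAPE1 than in Parental (adjusted p = 7.49e-08), and its log2 change in shCtrl against rABS had a 95% interval of -0.20 to 0.21 (adjusted p = 0.989).

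RIF1 (chromosome 2, 151409883 to 151508013, plus strand), the effector of 53BP1 that also sets replication timing, had a like order of groups. It had 123, 107 and 131 CPM in shAPE1, 203, 163 and 186 in shCtrl, 186, 173 and 204 in rABS, and 82.8, 98.9 and 90.1 in Parental. As for POLQ, shAPE1 lay between the Parental libraries and the overlapping shCtrl and rABS libraries. RIF1 rose 2.07-fold in rABS against Parental (log2 1.05 ± 0.09, edgeR adjusted p = 2.56e-12), fell 1.53-fold in shAPE1 against shCtrl (log2 -0.61 ± 0.08, adjusted p = 5.74e-07) and was 1.33-fold higher in shAPE1 than in Parental (adjusted p = 0.000162). Over the 12 libraries the log2 CPM of RIF1 and POLQ correlated at r = 0.95, given as a description since the libraries of a group share their condition. DCLRE1C ran against both, at r = -0.89 with POLQ and -0.79 with RIF1. The promoters of the 3 are shown together for these patterns. Those of POLQ and RIF1 were the 2 of the 8 windows with CHR letters. Those of RIF1 (1 place) and DCLRE1C (2 places) held CCAAT letters, and that of DCLRE1C held no CHR letters. TP53BP1 also ran with RIF1 (r = 0.86) and POLQ (r = 0.77), and its window held no CHR letters. Any bearing of these letters on the patterns was not tested.
POLQ promoter (chr3:121545939-121546238, minus strand): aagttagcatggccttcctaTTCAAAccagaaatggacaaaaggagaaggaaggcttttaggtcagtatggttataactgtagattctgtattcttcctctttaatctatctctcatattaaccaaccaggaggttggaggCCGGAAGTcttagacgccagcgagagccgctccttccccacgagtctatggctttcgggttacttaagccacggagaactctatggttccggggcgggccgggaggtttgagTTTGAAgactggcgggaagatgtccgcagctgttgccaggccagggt
RIF1 promoter (chr2:151409652-151409951, plus strand): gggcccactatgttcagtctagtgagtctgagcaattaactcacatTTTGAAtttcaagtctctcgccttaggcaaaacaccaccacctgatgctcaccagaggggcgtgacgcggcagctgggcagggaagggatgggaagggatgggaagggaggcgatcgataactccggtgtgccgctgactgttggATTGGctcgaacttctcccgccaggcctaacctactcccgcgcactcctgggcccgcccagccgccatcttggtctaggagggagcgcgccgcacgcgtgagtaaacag
DCLRE1C promoter (chr10:14954383-14954682, minus strand): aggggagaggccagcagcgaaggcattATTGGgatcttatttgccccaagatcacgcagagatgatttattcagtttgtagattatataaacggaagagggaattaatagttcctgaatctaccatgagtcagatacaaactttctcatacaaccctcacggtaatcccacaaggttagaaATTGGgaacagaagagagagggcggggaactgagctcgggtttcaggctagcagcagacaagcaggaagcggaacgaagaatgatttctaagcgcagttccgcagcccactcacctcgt

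TP53BP1 (chromosome 15, 43403061 to 43510728, minus strand), which encodes 53BP1, had smaller fold changes than RIF1 except in shCtrl against rABS, where neither was called. It had 71, 74.5 and 75.5 CPM in shAPE1, 84.9, 80.9 and 81.8 in shCtrl, 90.6, 90.3 and 93.7 in rABS, and 67.9, 79.1 and 71.7 in Parental. The rABS libraries lay above all others, and the shAPE1 libraries lay below those of shCtrl and among those of Parental. TP53BP1 rose 1.25-fold in rABS against Parental (log2 0.33 ± 0.07, edgeR adjusted p = 0.000233). It was not called in shAPE1 against shCtrl (log2 -0.16 ± 0.07, 95% interval -0.31 to -0.02, adjusted p = 0.0767) or in shCtrl against rABS (log2 -0.15, adjusted p = 0.102). Exons of TUBGCP4 on the opposite strand cover 28.7% of its exon bases, and without a known strand setting reads of the pair cannot be told apart there. For DCLRE1C and RIF1 such shared bases came to 2.51% and 0.914%.

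Ratios between partners, which need no scaling between libraries, were compared by exact permutation of the log2 ratio, two-sided. With 3 against 3 libraries there are 20 arrangements and the smallest possible p is 0.1, so none could pass 0.05. Of 28 tests (7 ratios in 4 comparisons), 16 gave an exact permutation p of 0.1, and their Benjamini-Hochberg value over the 28 was 0.18. The ratio of PRKDC to XRCC6, per length, was 0.122 ± 0.00148 in shAPE1 and 0.392 ± 0.00677 in shCtrl (SD, n = 3), without overlap. In rABS against Parental the same ratio was 0.394 ± 0.0446 and 0.33 ± 0.0311, with overlapping libraries (exact permutation p = 0.2). The ratio of the Ku subunits, XRCC5 to XRCC6, was 0.551 ± 0.0175 in shAPE1 and 0.622 ± 0.0196 in shCtrl.

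The ratio of the nuclease to its kinase was lower after exposure and higher with the hairpin. The ratio of DCLRE1C to PRKDC was 0.0752, 0.0634 and 0.0647 in rABS, against 0.192, 0.193 and 0.19 in Parental, 2.83-fold lower. With the hairpin it was 0.29, 0.281 and 0.294 in shAPE1, against 0.0827, 0.0959 and 0.0834 in shCtrl, 3.31-fold higher. There PRKDC fell 3.21-fold, while DCLRE1C was not called (log2 0.05). The ratio of POLQ to LIG4, the polymerase of the alternative route over the ligase of the canonical one, was 2.58, 3.19 and 2.9 in rABS and 1.07, 1.34 and 1.55 in Parental. It was higher still with the hairpin, at 5.68, 5.97 and 5.82 in shAPE1, against 3.28, 3.68 and 3.21 in shCtrl. In that comparison POLQ itself fell 1.38-fold and LIG4 fell 2.36-fold. Against Parental, shAPE1 was 4.45-fold higher in the ratio of POLQ to LIG4. The ratio of RIF1 to TP53BP1 averaged 1.17 ± 0.123 in shAPE1 and 1.59 ± 0.136 in shCtrl, and 1.47 ± 0.0898 in rABS and 0.889 ± 0.0141 in Parental. The ratio of LIG4 to XRCC4 averaged 0.345 ± 0.0755 in shAPE1 and 0.554 ± 0.122 in shCtrl. For NHEJ1 to XRCC4 the libraries overlapped in all 4 comparisons.

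**Figure D3:**
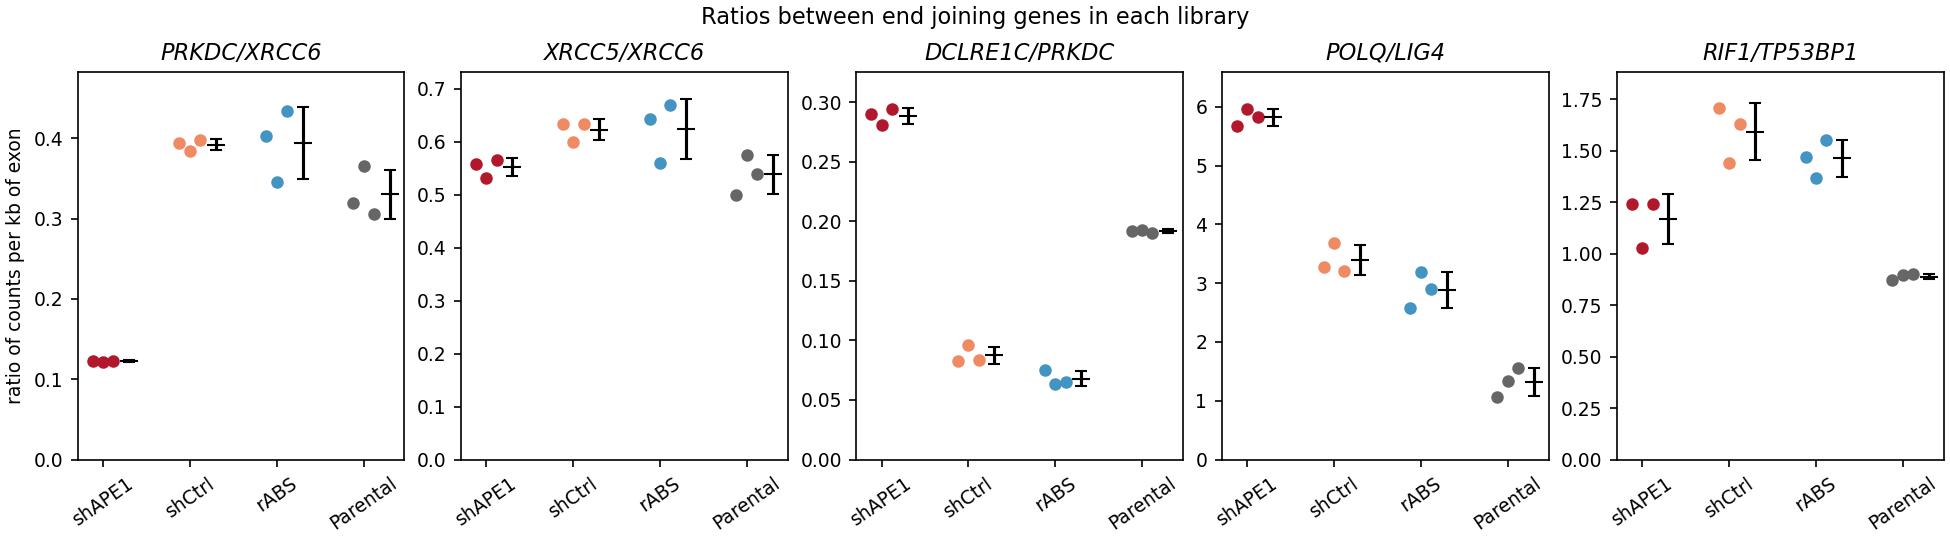
Ratios between end joining partners, in counts per kilobase of exon, in every library on axes that start at 0, by group; each point is 1 library, and the bars give the mean ± SD (n = 3). The shAPE1 libraries are highest for POLQ over LIG4 (5.68 to 5.97) and for DCLRE1C over PRKDC (0.281 to 0.294), and lowest for PRKDC over XRCC6 (0.121 to 0.123).

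Several of the 10 genes start close to a gene on the opposite strand, and these neighbours were set beside them. The start of PRKDC lies 2 bases from that of MCM4, a subunit of the replicative helicase. MCM4 averaged 335 ± 2.34 CPM in rABS and 65.7 ± 1.5 in Parental, a rise of 5.1-fold where PRKDC rose 1.41-fold. With the hairpin MCM4 averaged 141 ± 9.33 CPM in shAPE1 and 227 ± 5.28 in shCtrl, a fall of 1.61-fold (edgeR adjusted p = 3.65e-10) where PRKDC fell 3.21-fold. The start of LIG4 lies 11 bases from that of ABHD13, which encodes a protein of the abhydrolase family. ABHD13 had 6.83, 3.99 and 5.38 CPM in shAPE1, against 12, 11.3 and 10.2 in shCtrl, a fall of 2.06-fold (log2 -1.04 ± 0.16, edgeR adjusted p = 5.16e-06) beside 2.36-fold for LIG4. In rABS against Parental neither gene of this pair was called (ABHD13 log2 0.06, adjusted p = 0.741). The LIG4 promoter, shown because ABHD13 starts within it, held ETS letters.
LIG4 promoter (chr13:108218300-108218599, minus strand): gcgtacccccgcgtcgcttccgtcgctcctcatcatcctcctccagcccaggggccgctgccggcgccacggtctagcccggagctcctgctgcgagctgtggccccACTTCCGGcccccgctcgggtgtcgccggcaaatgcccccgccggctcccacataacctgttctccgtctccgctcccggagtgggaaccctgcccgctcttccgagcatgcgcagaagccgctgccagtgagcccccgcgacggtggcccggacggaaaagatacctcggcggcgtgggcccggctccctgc

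The start of XRCC6 lies 23 bases from that of DESI1, a deSUMOylating enzyme gene. DESI1 averaged 81.7 ± 6.06 CPM in shAPE1 and 65.2 ± 2.95 in shCtrl, a rise of 1.25-fold (edgeR adjusted p = 0.000914), where XRCC6 was not called. TMEM167A overlaps the start of XRCC4 and was not called in shAPE1 against shCtrl (log2 -0.20 ± 0.10, adjusted p = 0.101). MAP1A, 230 bases from the start of TP53BP1, averaged at most 2.55 CPM in any group. The tests of a difference in change between a gene and its neighbour were not made.

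**Figure D4:**
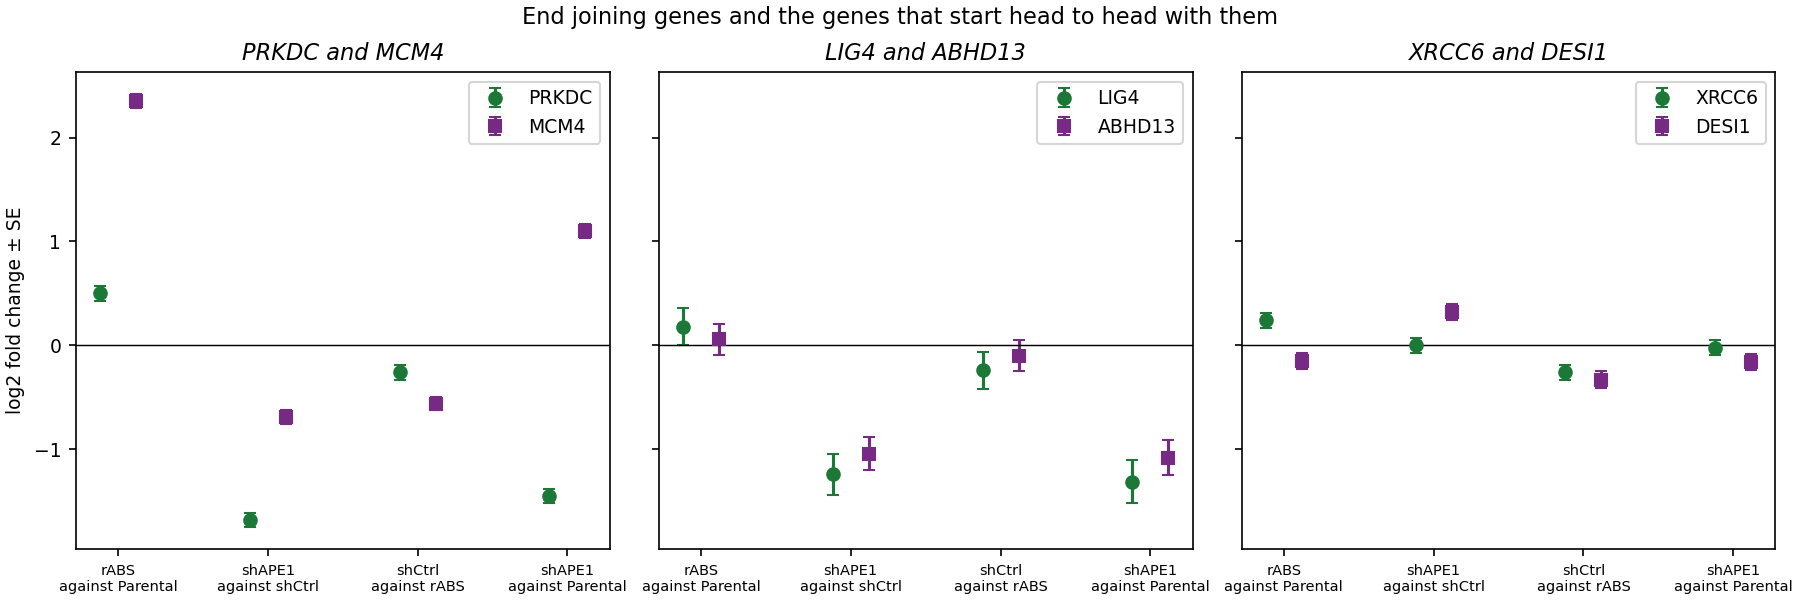
Log2 fold changes of PRKDC, LIG4 and XRCC6 and of the gene that starts head to head with each, in the 4 comparisons, with bars of 1 standard error from the edgeR fit (n = 3 libraries per group). With the APE1 hairpin LIG4 and ABHD13 lie close together, at -1.24 and -1.04, while PRKDC lies well below MCM4, at -1.68 and -0.69.

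An earlier pass over these same fold changes had picked out 3 words of 7 bases, TGCATTC with its overlapping words GCATTCT on one side and CTGCATT on the other, in 3′ untranslated regions of genes that fell with the APE1 hairpin, APEX1 included. Their presence is therefore a description and no independent evidence. Of 12539 tested genes with a GENCODE 29 region to search, 30.8% held at least 1 of the 3 and 14.1% held TGCATTC. Of the carriers of TGCATTC, 39.8% fell in shAPE1 against shCtrl, beside 15.8% of genes with none of the 3, and their median region was longer, at 3345 against 1210 bases. Only the longest annotated region of each gene was searched. Among the end joining genes, PRKDC and TP53BP1 held all 3 words, LIG4 held TGCATTC alone, and DCLRE1C and RIF1 held CTGCATT alone. XRCC5, XRCC6, XRCC4, NHEJ1 and POLQ held none of the 3. The carriers thus include the 2 largest falls (PRKDC and LIG4) and 2 genes that were not called (TP53BP1 and DCLRE1C), and POLQ, XRCC4 and XRCC5 fell without carrying any. Of the neighbours searched, MCM4, which fell, and TMEM167A, which was not called, held none. ABHD13, which fell, held both overlapping words but not TGCATTC itself, and DESI1, which rose, held GCATTCT alone. The sites of APEX1, LIG4 and TP53BP1 are shown on GRCh38 with the word in capitals, the first as the hairpin's target gene, the others as a gene that fell and a gene that was not called.
APEX1 site (chr14:20457580-20457606, plus strand): cagagaaatcTGCATTCtatttctcat
LIG4 site (chr13:108207788-108207814, minus strand): tatgtgaattTGCATTCcagtataaat
TP53BP1 site (chr15:43406270-43406296, minus strand): gccagaacacTGCATTCtttttcagtt

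Other genes of the pathway were read as 4 lists of 38 genes, of which 37 were tested. The lists too were chosen with earlier results of these data known. In rABS against Parental 23 of the 37 (62.2%) rose, 9 (24.3%) fell and 5 were not called, beside 29.9% of all genes tested in each direction. The median log2 change of the 37 was 0.40, beside -0.01 over all genes tested. All 6 genes of 53BP1 recruitment and break signalling rose. H2AX, the histone variant phosphorylated at breaks, rose 2.61-fold (285 ± 5.86 CPM in rABS and 109 ± 12.6 in Parental). The ubiquitin ligase gene RNF8 rose 1.9-fold, the adaptor gene MDC1 1.7-fold and RNF168 1.49-fold. The list also holds NUDT16L1, the gene of a 53BP1 inhibitor, which rose 1.5-fold. Of 13 genes of alternative end joining and resection, 9 rose, 3 fell and 1 was not called. FEN1, the flap endonuclease, rose 9.33-fold (130.3 ± 2.89 CPM in rABS and 14 ± 1.24 in Parental), the ligase gene LIG1 2.67-fold, PARP1 2.64-fold and the resection nuclease gene MRE11 2.19-fold. The 3 that fell were ERCC1 (1.44-fold) and ERCC4 (1.22-fold), whose products form a flap nuclease, and LIG3 (1.13-fold). FEN1, LIG1 and PARP1 also serve DNA replication and base excision repair.

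Genes downstream of 53BP1 and RIF1, and the accessory factors of canonical joining, went both ways in rABS against Parental. Of 8 effector genes tested 4 rose, 2 fell and 2 were not called. PAXIP1, the gene of the 53BP1 partner PTIP, rose 2.73-fold, and of the CST complex, which promotes fill-in at resected ends, CTC1 rose 1.91-fold and STN1 fell 1.95-fold. DYNLL1 rose 1.73-fold, SHLD2 of shieldin rose 1.26-fold, and MAD2L2 fell 1.23-fold. Of 10 accessory genes 4 rose and 4 fell, with 2 not called. The gap-filling polymerase genes POLM and POLL fell 1.78- and 1.74-fold, TDP2 fell 1.41-fold and WRN 1.27-fold. Among those that rose, the end-cleaning gene APTX rose 1.8-fold, CYREN 1.48-fold and TDP1 1.24-fold.

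In shAPE1 against shCtrl 15 of the 37 list genes were called (40.5%), a share near the 36.6% of all genes tested. Of the 37, 4 (10.8%) rose and 11 (29.7%) fell, beside 17.8% and 18.8% of all genes tested, and the median log2 change was -0.12, beside -0.02. Of the accessory genes of canonical joining, 1 rose (POLL, 1.24-fold) and 9 were not called. Among alternative end joining and resection genes 7 fell, 1 rose and 5 were not called: FEN1 fell 1.64-fold, LIG1 1.47-fold, MRE11 1.38-fold and RHNO1, whose product works with a DNA damage checkpoint clamp, 1.34-fold, and LIG3 rose 1.23-fold. SHLD2, the shieldin subunit gene, fell 1.63-fold (27.9 ± 3.73 CPM in shAPE1 and 45.4 ± 4.97 in shCtrl, edgeR adjusted p = 6.07e-06), and CTC1 rose 1.29-fold, with 6 of the 8 effectors not called. In break signalling 3 of 6 genes fell, H2AX 1.28-fold, MDC1 1.23-fold and RNF8 1.3-fold. NUDT16L1, the gene of the 53BP1 inhibitor TIRR, rose 1.37-fold, and ATM and RNF168 were not called.

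**Figure D5:**
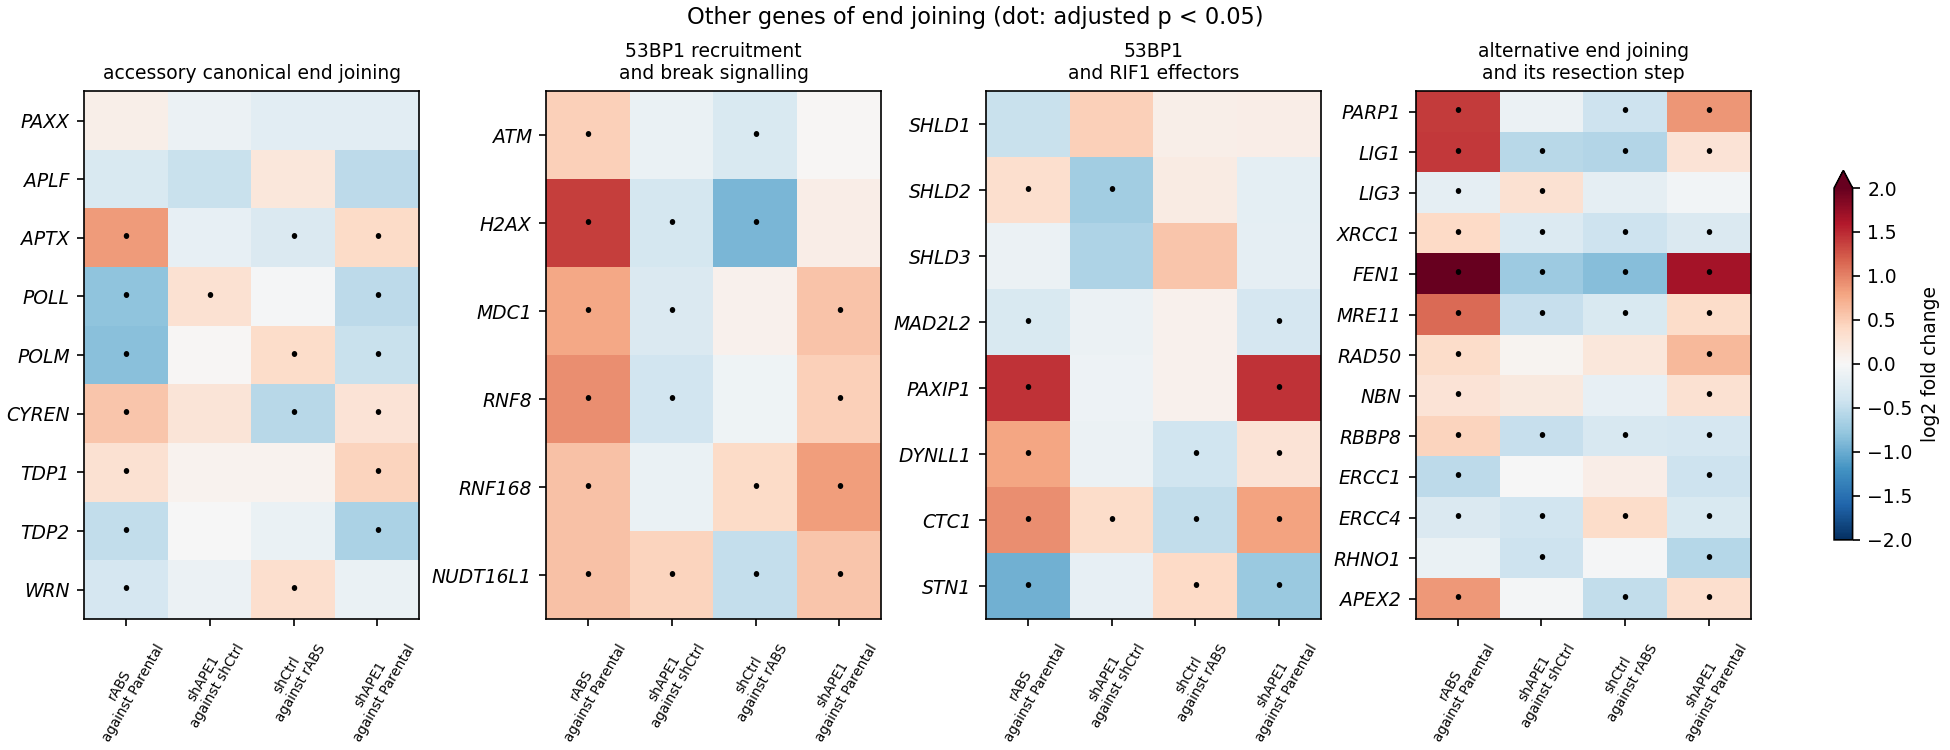
Log2 fold changes of all but 1 of the tested genes of the 4 other end joining lists as a heat map, with genes in rows and the 4 comparisons in columns (edgeR, n = 3 libraries per group); red is higher in the first-named group, blue lower, the scale ends at 2, and a dot marks a call. FEN1 lies past the end of the scale in rABS against Parental, at 3.22, and most cells in the column of shAPE1 against shCtrl are pale, with FEN1 (-0.72) and SHLD2 (-0.70) lowest.

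In shCtrl against rABS 5 of the 37 (13.5%) rose, 15 (40.5%) fell and 17 were not called, beside 17.9% of all genes tested that rose and 18.6% that fell. The falls with the smallest adjusted p were those of H2AX (1.88-fold) and FEN1 (1.8-fold). In shAPE1 against Parental 17 of the 37 (45.9%) rose, 10 (27%) fell and 10 were not called, beside 26.2% of all genes tested that rose and 27.5% that fell. FEN1 was 3.16-fold, PAXIP1 2.7-fold and PARP1 1.83-fold higher in shAPE1, and STN1 was 1.67-fold lower. Of the V(D)J partners that act with these factors in lymphocytes, DNTT had no count in any library, RAG2 averaged at most 0.0376 CPM in a group, and RAG1, the only one tested, averaged 1.04 CPM in shAPE1 and 0.431 in Parental.

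Over the 12 libraries other pairs of the 10 genes also ran close together, by the same measure and with the same limit. PRKDC and LIG4 correlated at r = 0.97, XRCC5 and TP53BP1 at 0.92 and XRCC5 and XRCC6 at 0.80. Of 10503 genes at a mean of 5 CPM or more, those most like PRKDC were SERBP1 (r = 0.995), CBX5 (0.993) and MORF4L2 (0.993). MORF4L2 averaged 24.3 CPM in shAPE1, 112 in shCtrl, 121 in rABS and 76.8 in Parental. Those most like XRCC6 were SYK (0.954), UBAC1 (0.947) and PPIB (0.944), and those most like XRCC5 were HSPA8 (0.987), TPM3 (0.972) and ZMPSTE24 (0.970). POLQ was matched most closely by C4orf46 (0.992), GSTCD (0.984) and MTR (0.983).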

How the data were processed

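Polyadenylated RNA of 12 OE33 libraries, 3 in each of 4 groups, was sequenced. The authors deposited whole-number counts for each Ensembl gene, without normalization. Per the submitters' processing notes, they used Trimmomatic 0.36, STAR 2.5.2b, featureCounts of Subread 1.5.2 and the build GRCh38. Which annotation release was used, whether counting was stranded, and how multi-mapping reads were treated is not given in the sources used here. Gene positions and exon lengths are from GENCODE 29, which placed 56898 of the 57500 genes.

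From the counts, filterByExpr of edgeR 4.0.16 (minimum count 10, minimum total 15) left 15805 genes. After TMM scaling, a robust quasi-likelihood model with 1 term for each group took in all 12 libraries (R 4.3.3 with limma 3.58.1). A gene was called at an adjusted p under 0.05 (Benjamini-Hochberg, all genes tested). Standard errors are the log2 change over the root of F. Library totals of 15736087 to 23010377 counts set the precision, which is poorest for NHEJ1, XRCC4 and LIG4. The fit was run on simulated data with known changes in few genes of a single group. That setting is unlike the broad changes here, so it cannot show the error rate on these data.

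Genes named were the 10 end joining genes, APEX1, up to 4 called genes per list and comparison by adjusted p (more where a count of 5 or fewer is accounted for), the 3 genes most correlated with PRKDC, XRCC6, XRCC5 and POLQ, and head-to-head neighbours. The epithelial markers were also named, and NUDT16L1 was added in rABS against Parental for its role. The values of 1 accessory gene of canonical joining, which is included in the counts, are not reported here. The 10 genes and the lists were chosen with earlier results of these data known, and so were the 7-base words. Alternatives were RLE and upper-quartile scaling, other filters, limma-voom, DESeq2 1.42.0, fits of the 6 libraries of a comparison, a replicate block, rABS as the control of shAPE1, the longest transcript as length, and leaving out each library.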

Additional observations from a re-analysis of the deposited data

How the results depend on the processing

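All 162 recomputed counts of called genes, over all genes and over the 10 end joining genes, stayed within 1.5 times the reported count. The split by direction moved with scaling, though little in rABS against Parental. In shAPE1 against shCtrl 2808 genes rose and 2976 fell, but 3215 and 2634 with upper-quartile scaling. With it, shCtrl against rABS went from 2832 and 2935 to 3005 and 2750. Likewise shAPE1 against Parental went from 4139 and 4344 to 4631 and 3859. The 6 end joining genes called in shAPE1 against shCtrl were 4 with that scaling, and 4 with the 6 libraries alone. Of 810 recomputed log2 changes of single end joining genes, 749 kept direction and call, 25 changed call and 36 changed sign; those 36 were called neither in the reported fit nor in the alternative, and the cause was not tested. In shAPE1 against shCtrl, NHEJ1 (-0.43) was 0.04 with rABS as the control, and XRCC6 (-0.00) was 0.02 with RLE scaling and with DESeq2, 0.04 with upper-quartile scaling, 0.01 with the 6 libraries alone, and -0.04 to 0.03 without single libraries. In shCtrl against rABS, POLQ (0.00) was -0.01 with RLE scaling and with DESeq2, -0.00 without a filter, with the 6 libraries alone and with limma-voom, and -0.05 to 0.06 without single libraries; RIF1 ran from -0.11 to 0.05 and XRCC4 from -0.28 to 0.07 without single libraries. In shAPE1 against Parental, XRCC6 (-0.02) was 0.04 with upper-quartile scaling and 0.01 with the 6 libraries alone, and without single libraries XRCC6 ran from -0.05 to 0.01, XRCC5 from -0.01 to 0.07, TP53BP1 from -0.01 to 0.07 and NHEJ1 (-0.36) from -0.59 to 0.03, the last without Parental replicate 1. In shAPE1 against shCtrl, XRCC5 lost its call in 13 of 21 alternatives (log2 -0.20 to -0.13, adjusted p 0.0507 to 0.226) and XRCC4 in 9 of 21 (log2 -0.54 to -0.33, adjusted p 0.0507 to 0.266). With rABS as the control of shAPE1, TP53BP1 (log2 -0.31, adjusted p = 0.000528) and XRCC6 (log2 -0.26, adjusted p = 0.00117) were also called lower. Without shAPE1 replicate 1, XRCC4 was called in shAPE1 against Parental (log2 -0.62, adjusted p = 0.0279). Leaving out each library in turn gave 7 to 7 called end joining genes in rABS against Parental, 4 to 6 in shAPE1 against shCtrl, 3 to 3 in shCtrl against rABS and 5 to 6 in shAPE1 against Parental. Replicate numbers are shared between groups, but same-numbered libraries did not deviate together over all genes tested (r of -0.167 to 0.109). By chi-square of the counts per degree of freedom, replicates 1 and 3 were the closest pair in each group (3.35 to 6.48). Pairs with replicate 2 ran from 5.52 to 16.03, and the cause was not tested. By correlation of log2 CPM the closest pair was 2 and 3 in Parental and shCtrl. A low r over all genes, taken from means of 3 libraries, cannot exclude a shared batch, and the labels name none. With the replicate block, 7, 5, 3 and 5 end joining genes were called in these comparisons in the same order. Over all genes the block called 9266, 5485, 5457 and 8272. Lengths of the longest transcript in place of all exons moved the levels per length of 8 of the 10 genes and kept the 3 highest in order. Depth limits NHEJ1 most, at 18 to 52 counts per library.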
